A study of Mus musculus with 23 samples.

Results

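Imprinted genes are the subject here: 47 genes known to be transcribed mainly from the copy inherited from 1 parent, chosen by their symbols from a list. Of these, 45 symbols had a window in the deposited tables, and 46 windows carried them because Rian had 2 rows. Peg13 and Snurf had no row. The tables held 41388 windows in all, each 3 kb at a transcription start site.

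Left ventricle (called heart here) and spleen of individually housed male C57Bl/6 mice, an inbred strain, gave the DNA. Mice of the control group ate a diet without resistant starch, those of the high fibre group a diet rich in resistant starch, and those of the acetate group had 100 mM magnesium acetate in their water. Diets ran from 3 weeks before a minipump operation until the end of the study, and the protocol names the operation for no group in particular. What the pumps held, which food the acetate group ate, and the age of the mice are not given in the sources used here. Sheared DNA was enriched with MethylMiner, a kit that binds methylated CpG sites through a methyl-CpG binding protein, and the captured fragments were sequenced. Heart gave 4 control, 4 high fibre and 3 acetate libraries, and spleen gave 4 of each. The labels do not say that libraries of a group came from separate mice, and a p-value here speaks only of how much these libraries scatter, which may be technical. The titles give heart and spleen libraries the same running numbers, so the tissues may come from the same mice, which the labels do not state.

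Imprints are laid down as DNA methylation in the egg or the sperm and are kept on that parent's copy in body cells through later cell divisions. Most such control regions are methylated on the maternal copy and lie at a promoter, often that of a noncoding RNA or a retrogene, while a few, such as those near H19 and Meg3, are methylated on the paternal copy and lie between genes. Because 1 copy is methylated and the other is not, a control region is expected to stay near an even mix in all tissues, whereas neighbouring imprinted promoters are controlled at a distance and need not carry methylation themselves. The Kcnq1ot1, Airn and Nespas noncoding RNAs start in such regions.

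Totals ran from 4.12 M to 8.60 M reads in heart and from 4.36 M to 9.87 M in spleen. A single window, Gm10800, took 17.3% to 21.3% of all reads in the high fibre heart libraries, 36.8% to 50.05% in the control heart libraries, 22.1% to 42.4% in the acetate heart libraries and 48.2% to 61.2% in spleen. No unenriched input library was used, so a count compares libraries and gives no methylation level. A window with more reads held more captured DNA at equal scaling, and capture efficiency and copy number enter the counts too. The labelled tissues were checked on the captured DNA with 12 cardiomyocyte markers and 12 blood cell markers, all of which had reads. The summed level of the cardiomyocyte markers was 272 to 332 CPM (reads scaled to a common library size) in control heart and 632 to 790 CPM in control spleen. The summed level of the blood cell markers was 214 to 242 CPM in control heart and 151 to 166 CPM in control spleen. The ranges of both lists did not overlap between these groups. Single markers were less uniform than these sums. By the edgeR test described below, all 12 cardiomyocyte markers differed between these groups, 9 lower and 3 higher in heart. Of the 12 blood cell markers 8 differed, all higher in heart, and 4 did not pass.

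The sequences just before 6 of the genes that the results turn on are shown first, because captured DNA depends on methylated CpG sites and these genes differ in how many they have. The genes were picked after their values were seen. Each run is the 200 bases before a start, 5′ to 3′ on the gene's strand, with CG in capitals, from RefSeq on build GRCm38.p6. Mcts2, a retrogene inside H13, and H13, its host and a signal peptide peptidase, lay at chr2:152686948-152687147 and chr2:152669261-152669460, both on the plus strand. Mcts2 had 15 CG and H13 had 16.
Mcts2: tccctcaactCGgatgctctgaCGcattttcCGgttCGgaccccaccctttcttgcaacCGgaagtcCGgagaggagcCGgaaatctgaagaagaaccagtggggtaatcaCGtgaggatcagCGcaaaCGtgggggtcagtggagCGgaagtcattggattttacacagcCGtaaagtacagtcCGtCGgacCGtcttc
H13: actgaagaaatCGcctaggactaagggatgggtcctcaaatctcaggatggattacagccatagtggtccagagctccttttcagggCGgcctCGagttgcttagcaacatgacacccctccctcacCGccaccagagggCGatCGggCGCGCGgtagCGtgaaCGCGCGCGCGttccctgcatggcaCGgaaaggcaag
Ndn (necdin) and Ube3a, a ubiquitin ligase, stand in the same large domain, at chr7:62348077-62348276 and chr7:59228550-59228749 on the plus strand. Ndn had 4 CG in this stretch and Ube3a had 22.
Ndn: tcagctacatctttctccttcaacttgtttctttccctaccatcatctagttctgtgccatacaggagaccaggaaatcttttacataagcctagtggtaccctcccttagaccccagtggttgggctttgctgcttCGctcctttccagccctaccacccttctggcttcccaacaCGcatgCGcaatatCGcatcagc
Ube3a: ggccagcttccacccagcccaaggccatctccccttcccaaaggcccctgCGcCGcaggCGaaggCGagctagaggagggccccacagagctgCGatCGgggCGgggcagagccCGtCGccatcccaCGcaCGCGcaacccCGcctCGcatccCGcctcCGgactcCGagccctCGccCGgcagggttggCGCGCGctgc
Peg3, a zinc finger protein (chr7:6730420-6730619, minus strand), had 8 CG, and Asb4, an ankyrin repeat protein (chr6:5383186-5383385, plus strand), had 3.
Peg3: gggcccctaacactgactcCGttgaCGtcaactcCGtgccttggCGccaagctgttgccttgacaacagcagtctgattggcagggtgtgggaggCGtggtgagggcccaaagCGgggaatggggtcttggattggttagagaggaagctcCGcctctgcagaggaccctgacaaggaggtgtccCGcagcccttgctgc
Asb4: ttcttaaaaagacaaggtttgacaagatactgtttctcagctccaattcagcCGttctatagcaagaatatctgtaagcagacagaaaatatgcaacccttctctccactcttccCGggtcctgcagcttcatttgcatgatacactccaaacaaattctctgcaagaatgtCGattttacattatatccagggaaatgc

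A 300-base RefSeq promoter (250 bases before a start to 50 after) was used for 38 of the imprinted genes, at 56 starts. Chromosome 18, where Impact lies, was left out for these genes but not from the counts over all promoters. The median promoter of these genes held 13 CG, against 7 over all 32851 promoters. The letters TGCCGC, the core of the motif bound by ZFP57, a zinc finger protein that protects imprints, were searched on both strands. They were present in promoters of Copg2, Grb10, Igf2, Mcts2, Meg3, Mest, Nnat, Plagl1, Snrpn, Snurf and Zim1, where Snrpn and Snurf have the identical promoter. With stretches that overlap on 1 strand counted once, 10 of 53 stretches of these genes held the letters, 18.9%, against 11.7% of all 30704. A match describes the sequence only, and the motif was chosen with the values known.

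Capture over the imprinted windows spanned from none to among the most captured windows of the tables. Of the 46 windows, 7 had 0 reads in all 23 libraries, where a count of 0 allows up to 3 reads: Zrsr1, a splicing factor retrogene, Nnat (neuronatin), Nespas, an antisense RNA of the Gnas domain, Dlk1, Rtl1 and both rows of Rian. Over all windows, 8.95% had 0 reads. Meg3 had 9 reads in all libraries together, Mirg had 1, Copg2 had 34 in heart and 4 in spleen, and Dio3 had 49 in heart and 24 in spleen. The median of the 46 windows was 10.3 CPM in heart, against 5.95 CPM over all windows, and 13.2 CPM in spleen, against 3.79 CPM. Inpp5f, a phosphoinositide phosphatase with an imprinted inner promoter, was highest in heart at 80.6 ± 8.72 CPM (SD, n = 11). Gnas, which encodes a stimulatory G protein subunit, was highest in spleen at 175 ± 49.3 CPM (SD, n = 12). Several windows at 0 share a locus with another gene, and how reads lying in more than 1 window were counted is not given in the sources used here.

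Of the 7 windows at 0, 4 lie in the Dlk1-Dio3 domain of chromosome 12. This domain holds the paternally expressed protein genes Dlk1, Rtl1 and Dio3, and the maternally expressed noncoding RNAs Meg3, Rian and Mirg, the last pair being hosts of many small RNAs. From Dlk1 to Gm22205, chr12:109452485-109688125 on GRCm38.p6, a run of 38 neighbouring windows over 236 kb held 9 reads in the 23 libraries together, all of them over Meg3. The other 37 windows, 19 of the 38 being microRNAs, had 0. Begain, the next window before the run, had 2974 reads in heart and 4142 in spleen. Gm25224, the next after it, had 183 in heart and 78 in spleen. Of the 39 windows after the run up to Dio3, 34 had 0 reads. This run was defined after its values were seen, with windows of 9 reads or fewer, the total of Meg3, and runs of at least 5 windows. By that rule 47 runs were found, and 6 held more windows than this one, none of them with an imprinted gene of the list. Of those 6, 3 lie on chromosome 7 between the starts of Ube3a and Snrpn, where small nucleolar RNA genes of that imprinted domain stand: Gm26466 to Gm26432 (47 windows), Gm25523 to Gm23560 (59 windows) and Gm24609 to Gm22812 (44 windows), all at 0 reads. Windows with few reads were 8.39% of the 30505 windows with a position, and 36.1% of the 1075 microRNA windows.

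**Figure D1:**
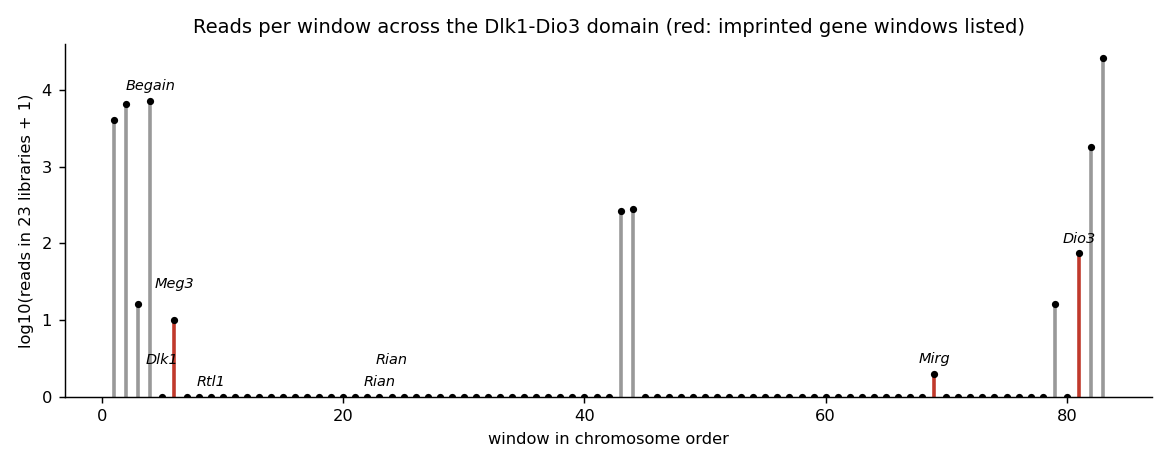
Reads summed over 23 libraries, as log10(reads + 1), for each window in chromosome order from 4 windows before Dlk1 to 2 after Dio3. Red stems are imprinted genes of the list and grey stems other genes. Begain stands at 7116 reads, Meg3 at 9, and 34 of the 39 windows after Gm22205 up to Dio3 at 0.

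High fibre and control diets were compared first in heart, the diet comparison with the most windows called. At a false discovery rate of 5% by edgeR's quasi-likelihood test, 4 of the 35 imprinted windows tested differed, which is 11.4%, against 26.2% of all 33562 windows tested (percent called). Asb4, Peg3 and Ube3a were higher on high fibre and Cdkn1c was lower. The median log2 change of the 35 windows was -0.04, against 0.02 over all windows tested. A smaller share of imprinted windows than of all windows passed, and no test of that gap was made.

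Ube3a is imprinted in neurons and otherwise expressed from both copies. Its heart libraries read 2.74, 5.95, 2.22 and 3.63 CPM on control, 5.82, 7.61, 10.1 and 8.6 CPM on high fibre and 1.19, 5.79 and 5.1 CPM on acetate. One control library lay above the lowest high fibre library, so the groups overlapped. The log2 change was 1.07 (SE 0.31, edgeR adjusted p = 0.0186).

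Peg3, expressed from the paternal copy, read 5.63, 7.6, 8.67 and 8.59 CPM on control, 9.47, 13.8, 9.85 and 14.2 CPM on high fibre and 4.17, 7.41 and 8.5 CPM on acetate. All 4 high fibre libraries were above every control and acetate library. The log2 change from control was 0.63 (SE 0.20, edgeR adjusted p = 0.0275).

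Asb4, expressed from the maternal copy beside Peg10, read 21.8, 22.1, 22.0 and 20.1 CPM on control and 26.8, 28.3, 32.2 and 26.0 CPM on high fibre, with no overlap. The acetate libraries read 20.9, 22.2 and 26.9 CPM and overlapped both. The log2 change from control was 0.39 (SE 0.12, edgeR adjusted p = 0.022).

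Cdkn1c, the cyclin-dependent kinase inhibitor p57, expressed from the maternal copy, moved the other way. It read 42.2, 38.2, 37.3 and 38.2 CPM on control and 28.6, 24.6, 33.0 and 23.7 CPM on high fibre, with no overlap. The acetate libraries read 54.8, 30.0 and 30.3 CPM, so 1 of the 3 stood well above the other 2. The log2 change from control was -0.50 (SE 0.16, edgeR adjusted p = 0.0253), and it turned to 0.19 with library totals in place of TMM scaling.

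**Figure D2:**
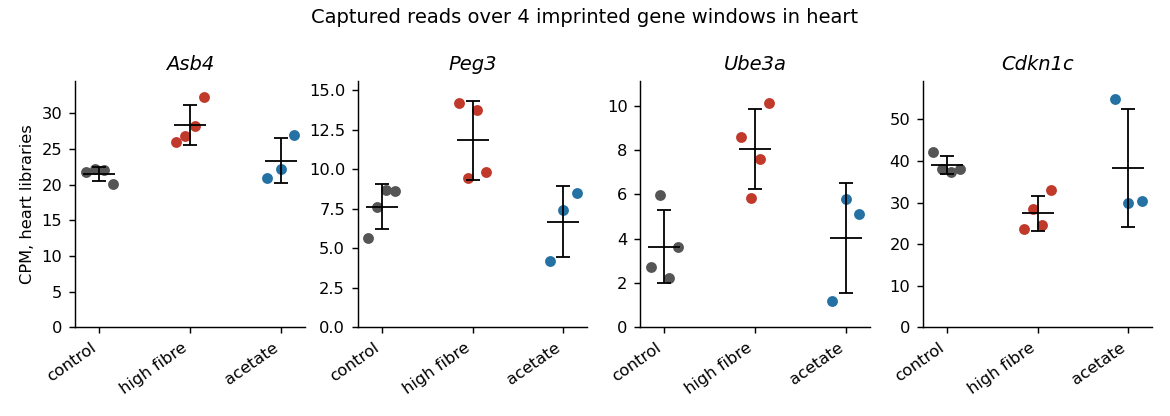
CPM of the 4 windows past the threshold in heart, 1 point per library, with mean and SD bars, for control (n = 4), high fibre (n = 4) and acetate (n = 3). High fibre points lie above control for Asb4 and Peg3, below control for Cdkn1c, and overlap control at 1 point for Ube3a.

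The other 31 tested windows did not pass. High fibre and control libraries did not overlap in 14 of the 35 windows, 40%, against 33.7% of all windows tested, with 26.2% of all windows called. Of these 14, Sfmbt2 (Polycomb group), Sgce (epsilon-sarcoglycan) and Cd81 (tetraspanin) were higher in every high fibre library without passing, at log2 changes of 1.11, 0.25 and 0.35. Trappc9, Slc38a4, Airn, Impact, Mcts2, Gnas, Usp29 and Inpp5f were lower in every high fibre library without passing, at log2 changes from -0.39 to -0.19. Genes were classed by whether a promoter of theirs lies in a maternally methylated germline region, without a check that the window covers it. Of the 14 windows classed as maternally methylated 1 passed (Peg3), and of the 20 classed as other 3 passed. H19, the 1 tested window classed as paternally methylated, had a log2 change of -0.26 (SE 0.32, edgeR adjusted p = 0.561).

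The direction of these changes followed how abundant a window was. Sorted by mean abundance into 10 bins of equal size, bin 1 the lowest, all windows had a median log2 change of 0.54 in bin 1 and -0.27 in bin 10. Ube3a sat in bin 3, whose median was 0.38, and Peg3 in bin 4, whose median was 0.24. Cdkn1c sat in bin 9, whose median was -0.26. Asb4 sat in bin 8, whose median was -0.20, so its rise went against the direction of its bin and was 0.60 above that median. H19 in bin 2 lay 0.82 below its bin's median. In all, 22 of the 35 windows lay above and 13 below the median of their bin.

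**Figure D3:**
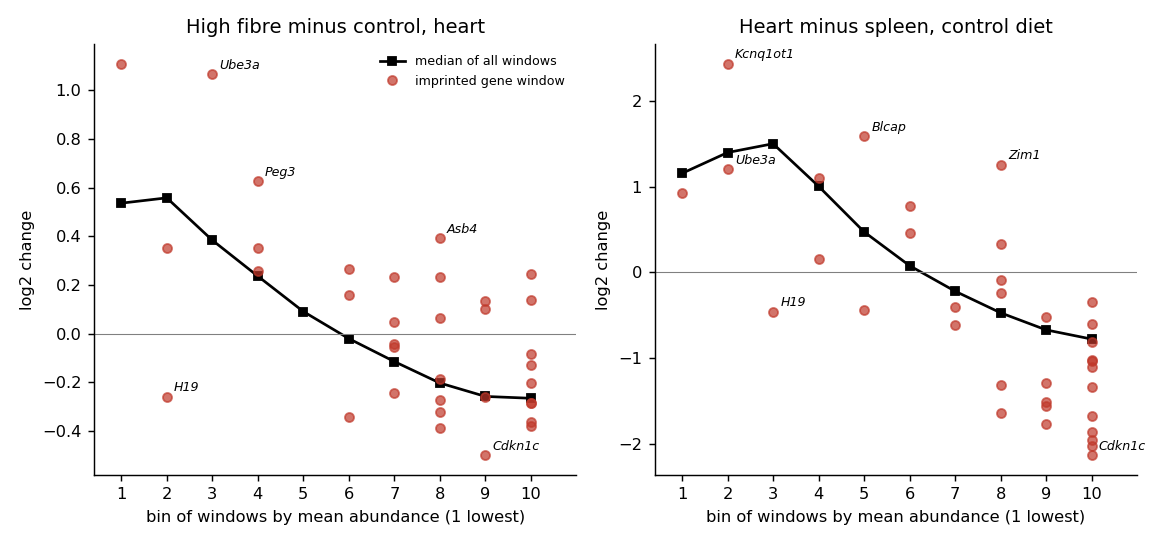
Log2 change against the bin of windows by mean abundance (1 lowest, 10 highest), for high fibre minus control in heart (left) and heart minus spleen on control (right). Black squares are the median of all windows in a bin and red points are the 35 imprinted windows. Asb4 and Zim1 sit above the line and Cdkn1c and H19 below it.

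Other measures moved with this comparison in the same libraries. The share of reads in Gm10800 was lower in the high fibre heart libraries than in the control ones, as stated above. Of the 12 blood cell markers, 8 passed (2 higher, 6 lower), their summed level being 175 to 205 CPM on high fibre and 214 to 242 CPM on control. Of the 12 cardiomyocyte markers, 5 passed (1 higher, 4 lower), at 260 to 292 CPM and 272 to 332 CPM. The part of these in the 4 calls was not tested. Scaled by library totals, 30 of the imprinted windows were called, all as higher, and 24626 of all windows were called, against 8786 in the main result. With 1 surrogate variable 0 imprinted windows and 42 of all windows were called, with Ube3a and Cdkn1c both at -0.03. Cyclic loess offsets, which remove a trend with abundance, called 6 imprinted windows, all as higher, and 5697 of all windows. Of the 4 main calls they kept 1, Asb4 at 0.59 (edgeR adjusted p = 0.00236).

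Single libraries set the count. Without control replicate 1 of heart 0 imprinted windows passed, without high fibre replicate 4 only 1, and without control replicate 3, high fibre replicate 2 or high fibre replicate 3 there were 2. Without acetate replicate 1, which is in neither group but shares the estimate of spread, 16 passed, and without acetate replicate 2 there were 7. The count over all windows moved as well. Dropping control replicate 1 left 2495 windows called and dropping control replicate 3 left 4707. Among high fibre libraries, the fit lacking replicate 4 called 2592, that lacking replicate 2 called 5679 and that lacking replicate 3 called 5174. The fit lacking acetate replicate 1 called 14336, and that lacking acetate replicate 2 called 8979. All 4 windows kept their direction whichever library was left out.

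Acetate and control diets were compared next in heart. Of the 35 imprinted windows 0 passed by edgeR, against 0% of all windows called, and by DESeq2 also 0. At an unadjusted p under 0.05 there were 0 imprinted windows and 840 of all windows. The 3 with the smallest p were Sgce at a log2 change of 0.24 (SE 0.12), Airn, the noncoding RNA antisense to Igf2r, at -0.24 (SE 0.14), and Plagl1, a zinc finger protein, at 0.22 (SE 0.13). The median over the 35 was 0.05, against 0.02 over all windows. High fibre against acetate in heart also gave 0 of 35 imprinted windows by edgeR, against 1.38% of all windows, and 10 of the 35 at an unadjusted p under 0.05, where 9105 of all 33562 windows were. RLE scaling called 0 of all windows in this comparison. Impact, a regulator of translation, at -0.59 (SE 0.17, edgeR adjusted p = 0.0594) and Peg3 at 0.73 (SE 0.22, edgeR adjusted p = 0.0651) came nearest, both without overlap between groups, followed by Phlda2, a growth-limiting placental protein, at -0.38 (SE 0.14). In this comparison the groups did not overlap at 14.3% of the 35 imprinted windows, against 21.4% of all windows tested. By DESeq2 2 imprinted windows and 2509 of all windows passed. Leaving out acetate replicate 2 of heart gave 6, with 2951 of all windows, and leaving out acetate replicate 3 gave 3, with 4536 of all windows, against 462 in the main result. Leaving out control replicate 2, 3 or 4, or high fibre replicate 1, 2 or 3, left 0 of all windows called. The fits lacking high fibre replicate 4, acetate replicate 1 and control replicate 1 called 4, 98 and 431 of all windows. The comparisons of acetate and of high fibre with control share the control libraries.

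In spleen 32 imprinted windows were tested. High fibre against control called 0 of them, against 0% of 24871 windows, acetate against control called 0, against 0%, and high fibre against acetate called 0, against 0%. By edgeR at an unadjusted p under 0.05 there were 1, 2 and 3 imprinted windows and 502, 872 and 823 of all windows in these comparisons, and DESeq2 also called 0 imprinted windows in each. On high fibre H19 had the smallest p, at a log2 change of 0.60 (SE 0.28), with Zim1 at 0.33 (SE 0.18) and Airn at 0.18 (SE 0.17). On acetate Cd81 stood at 0.59 (SE 0.22), H13 at 0.56 (SE 0.23) and Mest, a hydrolase-like protein, at -0.38 (SE 0.19), and H13 was the 1 window of 32 whose groups did not overlap, 3.12% against 2.67% of all windows. Between high fibre and acetate, Cd81 was at -0.49 (SE 0.22), Blcap, the host gene of Nnat, at -0.84 (SE 0.38) and H13 at -0.50 (SE 0.23).

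The diet changes were also set against each other between tissues with interaction terms. For high fibre 0 of 35 imprinted windows passed, against 0.0559% of 33982 windows. The smallest p belonged to Slc38a4, an amino acid transporter, at -0.44 (SE 0.22), Asb4 at 0.37 (SE 0.18) and H19 at -0.86 (SE 0.43). For acetate 0 of 35 passed, against 0%, with Mest at 0.64 (SE 0.25), Plagl1 at 0.43 (SE 0.20) and H13 at -0.52 (SE 0.26). By edgeR at an unadjusted p under 0.05 there were 0 imprinted windows for high fibre (5571 of all windows) and 2 for acetate (1553 of all windows), and DESeq2 called 0 imprinted windows in both. The heart calls were not shown to differ from spleen.

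Heart and spleen differed at most imprinted windows. All 23 libraries were fitted as independent. On control 30 of 35 passed (8 higher and 22 lower in heart), against 72.7% of 33982 windows. On high fibre 31 passed (9 higher, 22 lower), against 80.7%, and on acetate 27 (7 higher, 20 lower), against 63%. With the number shared by heart and spleen titles as a block, 29, 32 and 25 passed. Of all windows, 24559, 27108 and 16671 were then called, against 24708, 27427 and 21410 in the main fit. In all 3 diets 24 of the 35 windows passed, 68.6%, against 56.5% of all windows tested. Of these 24, 18 were lower in heart and 6 higher, whereas over all windows 9136 were lower and 10064 higher. The median log2 difference of the 35 was -0.61 on control, against 0.19 over all windows. The 3 diets used separate libraries, so each tissue difference is its own measurement, although they share 1 scaling and estimate of spread.

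**Figure D4:**
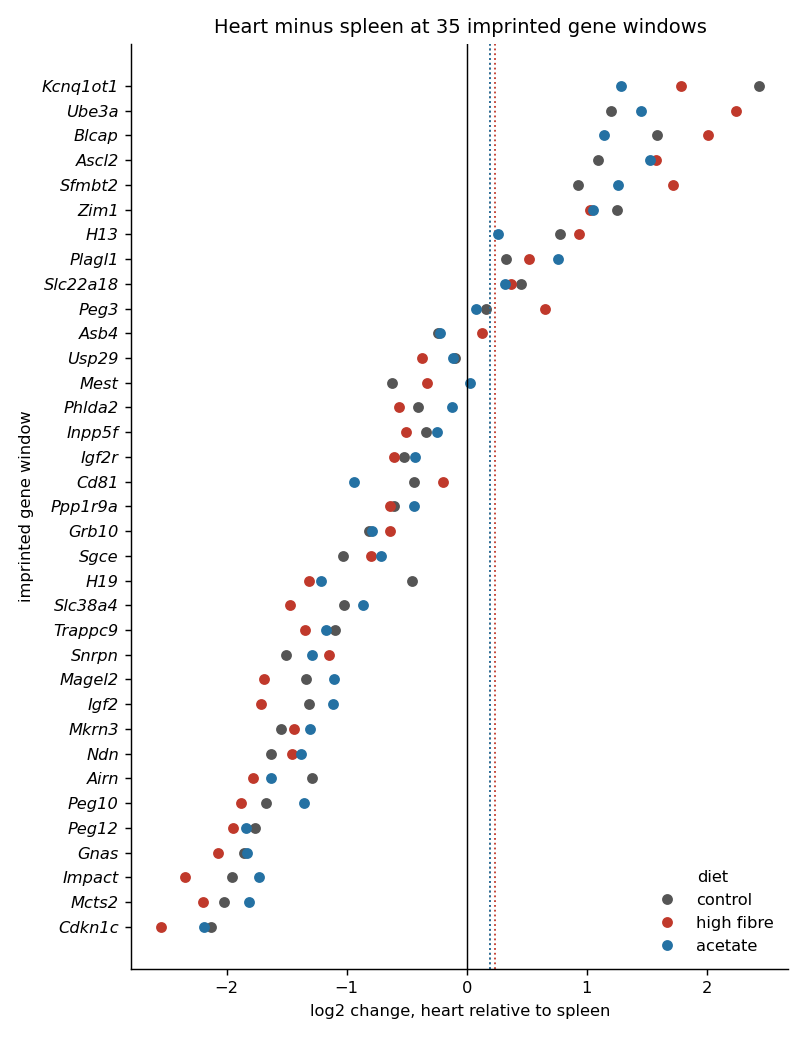
Log2 difference of heart relative to spleen for 35 imprinted windows, 1 point per diet (grey control, red high fibre, blue acetate), ordered by their mean. Dotted lines are the medians of all windows, 0.19, 0.24 and 0.19. Cdkn1c is lowest at -2.13 on control and Kcnq1ot1 highest at 2.43.

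Scaling moves these tissue directions. Library totals in place of TMM, edgeR's trimmed-mean scaling, moved the median of all windows on control from 0.19 to 1.03, on high fibre from 0.24 to 1.77 and on acetate from 0.19 to 1.09. With library totals, 15 imprinted windows passed as higher in heart and 11 as lower on control, 21 and 4 on high fibre, and 17 and 7 on acetate. Of all windows, 25438, 29832 and 25090 were then called. Over the main fit and 7 other settings in each of 3 diets, 24 fits in all, 4 imprinted windows passed as lower in heart in every one: Impact, Mcts2, Gnas and Cdkn1c. Another 2, Blcap and Zim1, passed as higher in heart in every one. The share of all windows that passed in every fit was not computed. In the main fit alone, 56.5% of all windows passed in all 3 diets. A further 9 kept 1 direction without always passing, and 20 changed direction in at least 1 fit. The tissue difference also followed abundance: bin 1 had a median of 1.15 on control and bin 10 of -0.78, and 23 of the 35 imprinted windows were in the top 3 bins. Of all windows on control, 1976 were called higher and 66 lower in heart in bin 1, and 108 higher and 2779 lower in bin 10. Of the 35, 23 lay below the median of their bin on control, with 20 for high fibre and 19 for acetate. The marker lists moved between the tissues too, as given above, and their part in these values was not tested.

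At H13 and Mcts2 the tissue differences of the host and of its inner retrogene ran in opposite directions, while Mcts2 had more reads than H13 in both tissues. On control, Mcts2 read 17.7, 17.5, 15.8 and 18.7 CPM in heart and 93.4, 65.5, 66.8 and 61.7 CPM in spleen. H13 read 8.67, 9.63, 9.87 and 10.1 CPM in heart and 5.59, 4.79, 5.7 and 5.8 CPM in spleen. Neither pair of groups overlapped. On control, heart and spleen did not overlap at 77.1% of the imprinted windows tested, against 67% of all windows tested. Mcts2 was lower in heart by a log2 difference of -2.02 (SE 0.17, edgeR adjusted p = 6.79e-12), 1.24 below its bin's median. H13 was higher by 0.78 (SE 0.18, edgeR adjusted p = 0.000315), although on acetate it did not pass, at 0.26.

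In the Kcnq1 domain Cdkn1c read 27.9, 25.3, 24.7 and 25.2 CPM in control heart and 178, 80.0, 109 and 90.7 CPM in control spleen, where replicate 1 stood above the rest. The difference was -2.13 (SE 0.21, edgeR adjusted p = 3.35e-10), 1.35 below its bin's median. Kcnq1ot1, the noncoding RNA that starts in the domain's control region, went the other way at 2.43 (SE 0.45, edgeR adjusted p = 1.72e-05). Its control spleen libraries held only 0, 3, 1 and 0 reads. On high fibre its direction turned with cyclic loess, to -0.19. Ascl2, a transcription factor of trophoblast, was higher in heart at 1.10 (SE 0.28), Phlda2 was at -0.40 (SE 0.15), Slc22a18, a membrane transporter, at 0.46 (SE 0.17) and Cd81 at -0.44 (SE 0.20), all past the threshold on control. Phlda2 and Cd81 turned direction with library totals, to 0.48 and 0.40. Cd81 was just past the threshold (edgeR adjusted p = 0.0491) and kept the call in only 7 of the 23 fits that left out 1 library, and RLE scaling, no filter, 1 surrogate variable, the replicate block and DESeq2 ended it too. Phlda2 kept the call in 21 of these 23 fits and Slc22a18 in 20. Over all 30 alternative fits, Phlda2 kept the call in 23, lost it in 6 and reversed in 1. Slc22a18 kept the call in 27 of the 30 and lost it in 3.

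The Snrpn domain of chromosome 7 is the one whose loss in people underlies Prader-Willi and Angelman syndromes. Its 5 paternally expressed genes tested were lower in heart, and Ube3a, maternally expressed in neurons, was higher. Snrpn, a ribonucleoprotein, was at 12.7 ± 1.04 CPM in control heart and 37.0 ± 6.68 CPM in control spleen (SD, n = 4 each), a difference of -1.51 (SE 0.14, edgeR adjusted p = 6.47e-11). Ndn was at -1.63 (SE 0.16), Mkrn3, a ring finger protein, at -1.55 (SE 0.17), Peg12, a GSK-3-binding protein, at -1.77 (SE 0.21) and Magel2, a MAGE family protein, at -1.34 (SE 0.17), all passing in all 3 diets. Snrpn, Ndn and Mkrn3 turned direction on high fibre when library totals were used. Ube3a was at 1.20 (SE 0.42, edgeR adjusted p = 0.0104), on 2, 11, 2 and 5 reads in the control spleen libraries. Its groups overlapped on control, and it turned to -0.09 with cyclic loess there.

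The Peg3 and Peg10 domains held both directions. Zim1, a maternally expressed zinc finger protein beside Peg3, read 25.1 ± 0.736 CPM in control heart and 10.2 ± 1.09 CPM in control spleen (SD, n = 4 each), a difference of 1.26 (SE 0.13, edgeR adjusted p = 9.7e-10), 1.73 above its bin's median. Peg3 at 0.16 (SE 0.25) and Usp29, a ubiquitin protease gene sharing its start region, at -0.09 (SE 0.13) did not pass on control. Peg10, a retrotransposon-derived placental protein, was at -1.67 (SE 0.18), and Sgce, which shares its control region, at -1.03 (SE 0.12). Ppp1r9a (neurabin) was at -0.61 (SE 0.11) and Asb4, which did not pass in any diet, at -0.24 (SE 0.13). Ppp1r9a turned to 0.29 with library totals and to 0.17 with cyclic loess.

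Among single domains, Blcap read 10.1 ± 2.55 CPM in control heart and 3.09 ± 0.881 CPM in control spleen (SD, n = 4 each), a difference of 1.59 (SE 0.24, edgeR adjusted p = 8.55e-07). Gnas was at -1.86 (SE 0.21), Impact at -1.95 (SE 0.21) and Airn at -1.29 (SE 0.18). Igf2r, the receptor that clears insulin-like growth factor 2, was at -0.52 (SE 0.13) and turned with library totals and with cyclic loess. Grb10, an adaptor that limits growth, was at -0.81 (SE 0.14), Slc38a4 at -1.02 (SE 0.16), Trappc9, a trafficking subunit, at -1.10 (SE 0.17), Inpp5f at -0.34 (SE 0.12) and Mest at -0.62 (SE 0.16). Grb10 and Inpp5f turned direction on control with library totals, to 0.12 and 0.58, and with cyclic loess, to 0.05 and 0.51. Mest turned to 0.27 with library totals and was at 0.03 on acetate, passing on control only. Plagl1 was higher at 0.33 (SE 0.14), and kept the call in 19 of the 23 fits that left out 1 library. Sfmbt2 at 0.93 (SE 0.49) did not pass on control and passed on high fibre and acetate.

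H19, the maternally expressed noncoding RNA that shares enhancers with Igf2, was at -0.46 (SE 0.31) in the control groups. On high fibre it was at -1.32 and with acetate at -1.21, and both of these passed. It sat in bin 3 by abundance and lay below the median of that bin by 1.96 (control), 3.19 (high fibre) and 2.40 (acetate), since the median window of the bin was higher in heart. Igf2, a fetal growth factor, was at -1.31 (SE 0.17, edgeR adjusted p = 6.02e-08) on control and passed in all 3 diets. By promoter class, 10 of 14 windows classed as maternally methylated passed in all 3 diets (8 lower in heart, 2 higher). Of the 20 classed as other 14 did (10 lower, 4 higher), against 56.5% of all windows. The classes were not compared by a test.

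Ratios between partner windows of 1 domain do not depend on library scaling, although a trend with abundance still enters them. The 10 pairs were chosen after the tissue values of their genes had been seen, several because these moved oppositely, so the ratios are a description without a test. The log2 ratio of Mcts2 to H13 reads was 0.11 to 1.47 in the 11 heart libraries and 2.41 to 4.03 in the 12 spleen libraries. That of Cdkn1c to Phlda2 was 0.63 to 1.53 and 2.47 to 3.33, and that of Cdkn1c to Ascl2 1.04 to 3.88 and 4.79 to 6.59. Those 3 pairs did not overlap between tissues.

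Ndn to Ube3a ran from 0.51 to 3.57 in heart and from 3.77 to 6.18 in spleen. Peg10 to Asb4 ran from 0.40 to 1.75 and from 1.89 to 3.00, and Airn to Igf2r from -1.25 to -0.67 and from -0.40 to 0.90, again without overlap. Peg10 to Sgce, Usp29 to Peg3 and Peg3 to Zim1 differed by -0.78, -0.54 and -0.79 between the tissue means, with overlap. The ratio of H19 to Igf2 was -2.06 ± 0.587 in heart (SD, n = 11) and -2.34 ± 0.606 in spleen (SD, n = 12), with broad overlap.

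**Figure D5:**
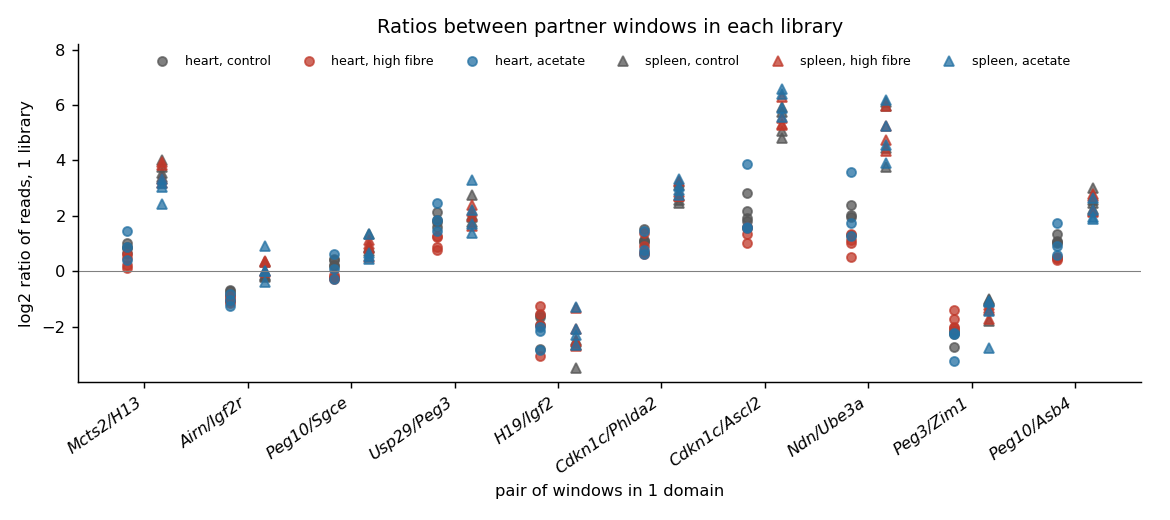
Log2 ratio of reads between partner windows, 1 point per library, circles for heart (n = 11) and triangles for spleen (n = 12), coloured by diet. Mcts2/H13 lies between 0.11 and 1.47 in heart and 2.41 and 4.03 in spleen, while H19/Igf2 overlaps.

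Genes that write, read and erase imprints, and other imprinted or neighbouring genes, were read from 2 further lists of windows. In heart on high fibre 12 of 30 windows of the first list passed (2 higher, 10 lower), against 26.2% of all windows. Ehmt2, a histone H3 lysine methyltransferase, was at -0.95, Dnmt3l, a cofactor of the methyltransferases that set imprints, at -0.51, Padi6, an egg protein, at -0.56, and Uhrf1, which brings Dnmt1 to replicating DNA, at -0.60. Of the other imprinted and neighbouring genes 11 of 46 passed (6 higher, 5 lower), led by Calcr at 0.69, Cobl at 0.57, Zdbf2 at 1.03 and Pon1 at -0.49. In both lists 0 passed for acetate against control in heart and for the 3 spleen comparisons, and for high fibre against acetate in heart 2 of 30 and 0 of 46 passed, against 1.38% of all windows.

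Between the tissues on control 22 of 30 windows of the first list passed (11 higher and 11 lower in heart), and 27 of 46 of the second (15 higher, 12 lower), against 72.7% of all windows. Dppa3, an egg factor that shields imprints after fertilization, was at -1.96, Ezh2, a Polycomb methyltransferase, at 1.76, Hira, a histone chaperone, at 1.42 and Kdm1b, a histone demethylase needed for maternal imprints, at -1.06. Ppp2r5c was at -1.66, Smoc1 at -1.33, Casd1 at 2.14 and Herc3 at 1.30. The imprinted windows together took 0.147% to 0.173% of the reads outside Gm10800 in heart and 0.202% to 0.260% in spleen, ranges that did not overlap. No other set of windows was taken as a share of these reads. In the main fit the most abundant of all windows, bin 10, had a median log2 difference of -0.78 on control. Of the 35 imprinted windows tested, 23 were in the top 3 bins.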

How the data were processed

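Reads captured by MethylMiner were measured in 23 libraries. The deposited values are raw read counts per 3 kb window at gene starts, 1 column per library, made by the authors without pooling, per the file headers. Build GRCm38 is listed in the submitters' processing notes, as are featureCounts 1.5.1, edgeR 3.16.5, the aligner BWA 0.7.10, and bcl2fastq 2.19.1.403. How windows are centred and how duplicate, multiply aligned or shared reads were counted is not given in the sources used here. All columns were mapped to samples by name.

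Counts were tested with edgeR 4.0.16 (R 4.3.3, TMM scaling, filterByExpr with a minimum count of 10, prior count 2, quasi-likelihood F test, Benjamini-Hochberg at 5% over all windows tested). Diets were compared in fits of the 11 heart or 12 spleen libraries, and tissues and interactions in 1 fit of all 23. Levels are CPM. Alternatives were library totals, RLE scaling, DESeq2 1.42.0, no filter, cyclic loess (limma 3.58.1), 1 surrogate variable (sva 3.50.0), a replicate block and leaving out each library. The code was tested on simulated data. Gene positions and promoters came from RefSeq tables of GRCm38.p6, with windows matched by symbol (73.7% of all windows). Replicate columns were not identical, and each pair differed by more than sampling noise (lowest chi-square per window 1.39).

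In each comparison, imprinted windows past the threshold were named, up to 10 per direction, or otherwise the 3 with the smallest p, and up to 4 windows of each other list. Further imprinted windows were named as members. The members, lists, pairs of windows, printed promoters and motif were chosen with earlier results of these data known. The 10 abundance bins, the run of empty windows and the ratios were added after the data were seen.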

Additional observations from a re-analysis of the deposited data

Results flagged for a closer look

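In 8 of 166 sets of 4 libraries, 1 library stood far from the other 3 for an imprinted window, and chance flags about 1 in 20 such sets. Spleen control replicate 1 was high for Airn (36.7 CPM, the others 22.2 to 24.1), Peg12 (39.1 CPM, the others 18.1 to 20.1) and Inpp5f (80.3 CPM, the others 68.3 to 69.7). Spleen acetate replicate 4 was high for Impact (60.8 CPM, the others 38.9 to 42.0) and Gnas (169 CPM, the others 106 to 113), and spleen acetate replicate 3 for Asb4 (14.9 CPM, the others 11.8 to 12.03). Spleen high fibre replicate 4 was high for Phlda2 (11.02 CPM, the others 9.08 to 9.27). Heart high fibre replicate 2 was low for Gnas (55.1 CPM, the others 61.5 to 62.6). All levels use scaling within the tissue.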

How the results depend on the processing

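The count of imprinted windows called was recomputed under 7 other settings and without each library in turn. In heart, high fibre against control gave 4 (8786 of all windows), and 30 with library totals (24626 of all windows). It gave 0 with 1 surrogate variable (42 of all windows) and 7 with a replicate block (10501 of all windows). Cyclic loess gave 6 (5697 of all windows), of which 1 was among the main 4. The count ranged from 0 to 16 with 1 library left out (2495 to 14336 of all windows). High fibre against acetate in heart gave 0 (462 of all windows), and 4 with library totals (1882 of all windows). A replicate block gave 2 (2284 of all windows) and DESeq2 gave 2 (2509 of all windows). With 1 library left out the count ran from 0 to 6 (0 to 4536 of all windows). The tissue comparison on high fibre gave 31 (27427 of all windows), and 19 with 1 surrogate variable (10128 of all windows). The high fibre interaction gave 0 (19 of all windows), and 11 with library totals (6388 of all windows) and 1 with cyclic loess (104 of all windows). The other counts stayed within 1.5 times of their main value. The replicate block moved no other count of imprinted windows by more than that, and called 980 of all windows in the high fibre interaction. Same-numbered libraries of heart and spleen correlated in their deviations at -0.11 to 0.37 (median 0.002), and 4 of 11 pairs were over 0.1. Pairs with different numbers ran from -0.44 to 0.37 (median 0.004), and 28 of 121 were over 0.1. Whether they share a mouse is not stated, so the fit without the block was kept as the main one.

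For single named windows, leaving out 1 library kept direction and side of the threshold in 2324 of 2380 results and reversed 0. The other settings kept both in 670 of 789 and reversed 48. With library totals these log2 values reversed: in heart Cdkn1c 0.19 (high fibre against control), Airn 0.013 (acetate against control) and Phlda2 0.066 (high fibre against acetate), and Slc38a4 0.24 in the high fibre interaction. Between tissues on control they were Grb10 0.12, Ppp1r9a 0.29, Igf2r 0.39, Mest 0.27, Inpp5f 0.58, Phlda2 0.48 and Cd81 0.40. On high fibre they were Slc38a4 0.12, Ndn 0.11, Mkrn3 0.14, Snrpn 0.43, Trappc9 0.24, Sgce 0.79, Ppp1r9a 0.96, Igf2r 0.97, Grb10 0.95, H19 0.16, Inpp5f 1.09, Phlda2 1.00 and Usp29 1.20. On acetate they were Sgce 0.24, Grb10 0.16, Slc38a4 0.039, Ppp1r9a 0.50 and Igf2r 0.49. With cyclic loess the reversed values on control were Grb10 0.052, Ppp1r9a 0.17, Igf2r 0.12, Ube3a -0.092 and Inpp5f 0.51. On high fibre they were Sgce 0.17, Ppp1r9a 0.49, Igf2r 0.31, Grb10 0.59, Inpp5f 0.71, Kcnq1ot1 -0.19, Sfmbt2 -0.36, Usp29 0.32 and Peg3 -0.11, and on acetate Grb10 0.031, Ppp1r9a 0.31 and Igf2r 0.16. With 1 surrogate variable Ube3a was at -0.026 in heart on high fibre and Sfmbt2 at -0.18 between tissues on high fibre. The cause was not tested. Depth limits windows with few reads, such as Ube3a and Kcnq1ot1 in spleen.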
